A study of Mus musculus with 16 samples.

Results

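The comparison described here set fetal testes that had lost their germ cells against fetal testes that kept them. Male gonads of Nanos3 knockout (Nanos3-/-) mouse embryos were compared with male gonads of Nanos3 heterozygous (Nanos3+/-) embryos at embryonic days (E) 12.5, 13.5, 14.5 and 15.5. It rests on 8 of the 16 samples of the series, 4 knockout and 4 heterozygous, chosen by their labels for sex and genotype and paired by day. The other 8 samples are female knockout and female heterozygous gonads of the same days, which enter the shared fit and 1 contrast below. The titles give their sex as female, although their descriptions name a male gonad. Each sample was total RNA of whole gonads on a one-colour Agilent array, and each title says that replicates 1 and 2 were combined, so a group holds 1 sample per day and the days serve as its replicates. The heterozygous embryos that act as controls carry 1 mutant Nanos3 allele themselves, no wild-type sample is among the 16, and strain and allele are not given in the sources used here.

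Nanos3 is an RNA-binding protein that keeps primordial germ cells alive while they migrate to the gonad, and mouse embryos without it reach gonad formation with few or no germ cells. In a fetal testis with germ cells, these cells are enclosed by Sertoli cells in cords, keep a pluripotency programme for a time, stop dividing, and then start the male programme of NANOS2, DNMT3L and the piRNA pathway, which silences transposons. Sertoli cells make anti-Müllerian hormone and desert hedgehog, and the fetal Leydig cells between the cords make androgens. The array measured RNA of the whole organ, so fewer cells of a type and less RNA per cell cannot be told apart.

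Values are log2 of the deposited ratios, in which each probe is centred on its own level across the series, so that 0 stands near the middle of that probe's 16 samples. They compare samples for one gene and never the levels of different genes. A limma model over all 16 samples with a term for each sex and day gave each gene's difference, knockout minus heterozygous, and a gene was called at a Benjamini-Hochberg adjusted p below 0.05 over 16581 genes. Some signals were held by the deposited processing at a detection limit, and a knockout group that lies at the limit on all days gives only a bound. The labels do not name litters. The p-values measure how the difference varied over the days of the male and female pairs, which mixes change with age and technical spread.

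Of the 16581 genes, 2088 were lower in knockout testes, which is 12.6%, and 3598 were higher, which is 21.7%. The differences were unequal in size. At least 2-fold lower were 1051 genes, or 6.34%, and at least 2-fold higher were 69, or 0.416%. The lower group reached far: 273 genes were at least 8-fold, 85 at least 32-fold and 21 at least 128-fold lower, whereas 1 gene was at least 4-fold higher. In 1437 genes (8.67%) all knockout samples lay below all heterozygous samples, and in 1316 genes (7.94%) they lay above. The split between higher and lower depends on how the arrays are scaled, since the scaling to a common 75th percentile put the median of all genes at 0.12 in knockout testes. With arrays centred on the median it was 0.05, with 2536 genes higher and 2356 lower, and with the values as deposited it was 0.01, with 328 higher and 1615 lower. Leaving out E13.5 or E14.5 reduced the count of genes at least 2-fold lower to 632 and 581, and the genes at least 2-fold higher to 41 and 44. The calls also depend on the probe. Among the called genes changed at least 2-fold, 405 had several probes above the limit in at least 4 samples. In 71 of these 405 the probes differed in sign.

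The number of genes that were lower grew with age. In the single pair of each day, 857 genes were at least 2-fold lower in the knockout at E12.5, 1390 at E13.5, 1618 at E14.5 and 2131 at E15.5. Genes at least 2-fold higher numbered 440, 417, 325 and 331 on those days. Among the 1051 genes called at least 2-fold lower, 470 were so on 4 of 4 days, 283 differed by less than 2-fold at E12.5 and by at least 4-fold at E15.5, and 26 showed the opposite order. Between E12.5 and E15.5 the knockout level of these genes was at least 2-fold higher at the later day in 54 and at least 2-fold lower in 180. The heterozygous level was at least 2-fold higher at E15.5 in 522 and at least 2-fold lower in 139.

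The labels were checked on the targeted gene and on markers first. Nanos3 read -0.05, 0.03, -0.40 and -0.71 in the knockouts from E12.5 to E15.5, against 1.69, 3.49, 2.98 and 0.92 in the heterozygotes. The groups did not overlap, and Nanos3 fell by 2.55 ± 0.41 (SE, adjusted p = 0.00363, limma). The knockout signal was 29.9%, 9.07%, 9.55% and 32.4% of the heterozygous one on the 4 days, and the position of the probe relative to the deletion is not analysed here. As to sex, the Y-linked genes Uba1y and Usp9y were at the detection limit in all 8 samples titled female. Uba1y was at the limit in 0 male samples and Usp9y in 4, the knockouts, so Usp9y does not separate the sexes among knockouts. Kdm5d was at the limit in 7 of the 16 samples and Eif2s3y in 0. The female levels of Eif2s3y, Kdm5d and Xist are not given here, so the check of sex rests on few genes. Of 4 Y-linked genes of the check, Usp9y was lower and is described below. Eif2s3y was not called, at -0.70 ± 1.34 (SE, adjusted p = 0.714, limma), nor were Kdm5d and Uty, at 0.28 ± 0.28 (SE, adjusted p = 0.475, limma) and 0.34 ± 0.14 (SE, adjusted p = 0.087, limma), and Xist, the RNA of the inactive X chromosome, differed by -0.36 ± 0.65 (SE, adjusted p = 0.696, limma).

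One library stood apart. In the E12.5 knockout, genes of heart and other striated muscle were high: Nppa, the atrial natriuretic peptide gene, read 5.52 there, against -0.05 in the E12.5 heterozygote, and between -0.11 and 0.63 in the other knockouts. Tnnt2, cardiac troponin T, read 4.71 in that sample and 0.44 to 0.90 in the other knockouts. Of 17 heart and muscle type genes, listed after the values were seen, 14 were at least 2-fold higher in the knockout at E12.5, against 1 at E13.5, 3 at E14.5 and 0 at E15.5. Liver type genes, also listed after the values were seen, were spread over more days. From E12.5 to E15.5, 6, 11, 7 and 1 of 20 were at least 2-fold higher in the knockout than in the heterozygote. At E14.5 the heterozygote read low in Alb and Fabp1, at -3.54 and -3.50, against -0.32 and -0.34 in the knockout, but not in Afp, at -0.23. The share of these tissues in the other differences was not tested. Without E12.5, 1343 genes were at least 2-fold lower and 85 at least 2-fold higher, and the lower members of the lists below numbered 13 in pluripotency, 20 in the piRNA pathway, 11 in male germ cell fate and 23 in meiosis.

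**Figure D1:**
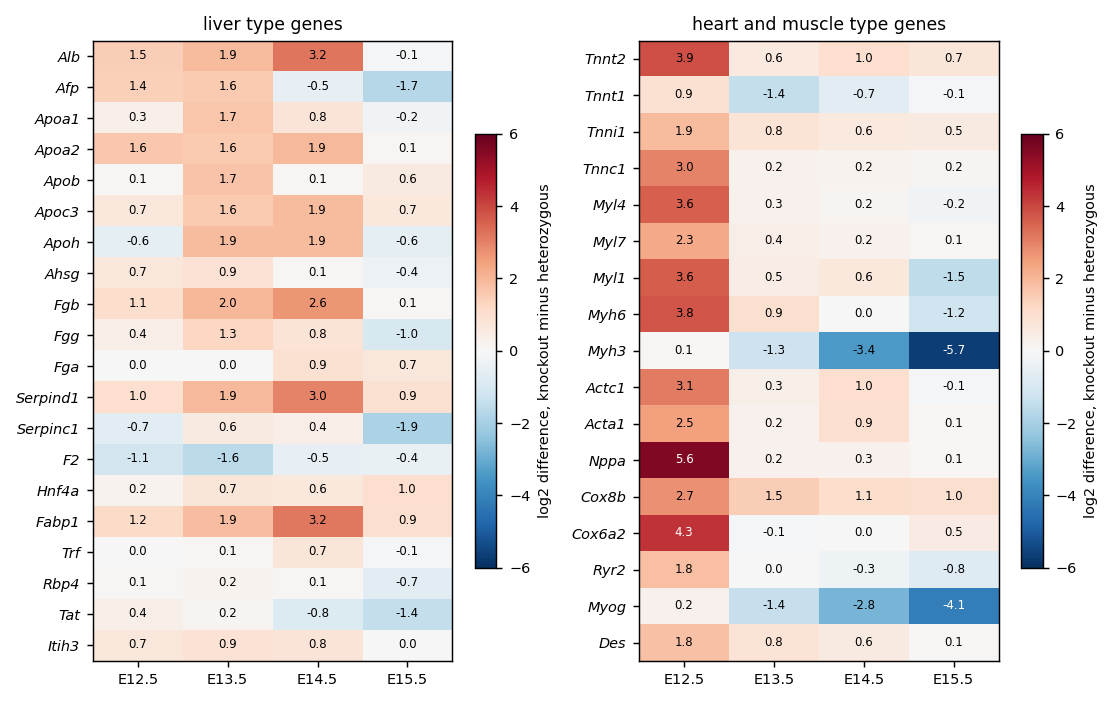
Difference of each gene on each day, log2, knockout minus heterozygous male gonad (colour and number), for 20 liver type genes and 17 heart and muscle type genes chosen after the values were seen. Most heart and muscle type genes are higher in the knockout at E12.5, where Nppa differs by 5.57. Of the liver type genes, 11 are at least 2-fold higher at E13.5 and 7 at E14.5. Myog and Myh3 are increasingly lower.

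Genes of the germ cell's own RNA machinery were far lower in the knockout testes. Ddx4, the germ cell RNA helicase also known as Vasa, read -5.11, -5.55, -5.14 and -5.04 in the knockouts, against 1.04, 2.17, 2.59 and 2.19 in the heterozygotes. The knockout signal was 1.40% of the heterozygous one at E12.5 and 0.473%, 0.471% and 0.667% on the later days, and the groups lay far apart. Ddx4 fell by 7.21 ± 0.45 (SE, adjusted p = 6.26e-05, limma). Dazl, which promotes translation in germ cells, read -4.30, -4.49, -5.42 and -5.37 in the knockouts, against 3.49, 3.72, 0.62 and 0.65 in the heterozygotes. Both groups were lower on the last days, and Dazl fell by 7.02 ± 0.45 (SE, adjusted p = 6.98e-05, limma). Cpeb1, which controls polyadenylation in the cytoplasm, fell by 6.23 ± 0.31 (SE, adjusted p = 4.81e-05, limma). Of 20 germline RNA-binding protein genes tested, 12 were lower and 1, Tia1 at 0.50 ± 0.12 (SE, adjusted p = 0.0148, limma), was higher, with a median of -1.78, against 0.12 over all genes. Of all genes 12.6% were lower and 21.7% higher. The list also holds widely expressed members, and 7 were not called.

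The piRNA pathway was the list with the largest share of lower genes, 20 of 21 against 12.6% of all genes, with a median of -5.34. Gtsf1, a cofactor of PIWI proteins, read -3.84, -5.74, -5.30 and -5.40 in the knockouts, against 1.15, 4.96, 6.74 and 7.02 in the heterozygotes. The heterozygous level climbed while the knockout level was lowest from E13.5, and Gtsf1 had the lowest difference of all 16581 genes, -10.04 ± 1.13 (SE, adjusted p = 0.00104, limma). Mael, a component of the germ granule, read -6.14, -6.61, -6.6 and -6.48 in the knockouts, against 1.14, 2.99, 4.29 and 4.60 in the heterozygotes. It fell by 9.71 ± 0.63 (SE, adjusted p = 6.98e-05, limma), and in 2 knockout samples it stood at the lowest value that the deposited table holds, a ratio of 0.01, so the difference there is a bound. Asz1, a germ cell protein of the mitochondrial surface, was at the detection limit in 4 of 4 knockouts and between 1.34 and 3.48 in the heterozygotes, at least 223-fold lower (adjusted p = 4.32e-05, limma). Morc1, needed for transposon silencing, fell by 7.38 ± 0.86 (SE, adjusted p = 0.00120, limma). The exception was Tdrd6, at -0.04 ± 0.32 (SE, adjusted p = 0.936, limma). Without E13.5 or E14.5, 16 and 15 members were lower.

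The promoters of Ddx4, Dazl, Mael, Gtsf1 and Asz1 are shown because these germ cell genes, described above, had large differences on each day. Each run is the 250 bases before the annotated start in GRCm38.p6 (RefSeq), on the gene's own strand, 5′ to 3′, with matches to CACGTG, the core of an E-box, and to GGCGGGAA, an E2F-type motif, on either strand in capitals. Ddx4 lies at chr13:112652311-112652560, Dazl at chr17:50293621-50293870, Mael at chr1:166238745-166238994, Gtsf1 at chr15:103430428-103430677 and Asz1 at chr6:18109062-18109311, each on the minus strand.
Ddx4: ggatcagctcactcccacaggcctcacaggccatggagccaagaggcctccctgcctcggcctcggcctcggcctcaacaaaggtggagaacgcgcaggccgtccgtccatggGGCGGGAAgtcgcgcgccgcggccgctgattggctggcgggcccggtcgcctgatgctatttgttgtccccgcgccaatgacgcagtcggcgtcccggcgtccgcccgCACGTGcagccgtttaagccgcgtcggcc
Dazl: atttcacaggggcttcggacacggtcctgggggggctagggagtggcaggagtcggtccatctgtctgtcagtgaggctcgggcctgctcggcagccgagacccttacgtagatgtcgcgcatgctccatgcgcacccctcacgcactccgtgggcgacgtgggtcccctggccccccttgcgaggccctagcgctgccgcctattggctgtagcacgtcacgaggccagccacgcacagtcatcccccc
Mael: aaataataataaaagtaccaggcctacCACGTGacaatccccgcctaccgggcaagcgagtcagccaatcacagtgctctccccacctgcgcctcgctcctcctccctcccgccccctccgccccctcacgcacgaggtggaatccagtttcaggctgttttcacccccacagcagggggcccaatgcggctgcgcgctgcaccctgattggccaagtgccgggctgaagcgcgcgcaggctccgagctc
Gtsf1: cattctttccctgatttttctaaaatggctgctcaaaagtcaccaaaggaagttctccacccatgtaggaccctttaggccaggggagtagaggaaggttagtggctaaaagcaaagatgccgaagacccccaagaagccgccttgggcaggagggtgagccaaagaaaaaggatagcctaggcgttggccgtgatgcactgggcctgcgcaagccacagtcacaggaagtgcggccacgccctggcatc
Asz1: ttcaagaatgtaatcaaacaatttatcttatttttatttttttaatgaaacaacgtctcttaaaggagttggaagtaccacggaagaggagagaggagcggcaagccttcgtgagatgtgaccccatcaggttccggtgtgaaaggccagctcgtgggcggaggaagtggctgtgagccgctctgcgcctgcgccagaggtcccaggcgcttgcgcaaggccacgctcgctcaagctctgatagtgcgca
CACGTG occurs once in the Ddx4 and Mael windows and GGCGGGAA once in that of Ddx4, while the Dazl, Gtsf1 and Asz1 windows hold neither. The windows hold 31 CG dinucleotides in Ddx4, 20 in Dazl, 18 in Mael, 15 in Asz1 and 7 in Gtsf1. Over the table's windows of 300 bases, which run 50 bases past the start, CACGTG was found in 31 of the 216 matched genes that were at least 8-fold lower, or 14.4%, in 12.5% of those at least 2-fold lower and in 9.28% of all tested genes with a window. GGCGGGAA was found in 3.24%, 3.72% and 3.56% of these sets. These shares are a description of letters, with no test.

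Pluripotency genes were lower in 14 of 15 members, against 12.6% of all genes, with a median of -4.12, and the difference was already large at E12.5. Pou5f1, the transcription factor OCT4, read -0.16, -1.37, -3.59 and -3.86 in the knockouts, against 5.42, 6.17, 5.0 and 4.84 in the heterozygotes. Its knockout signal was 2.09% of the heterozygous one at E12.5 and 0.242% at E15.5, and the groups did not overlap (difference -7.60 ± 0.97, SE, adjusted p = 0.00169, limma). Dppa3, also called Stella, a maternal and germ cell chromatin factor, read -0.28, -1.15, -4.10 and -6.06 in the knockouts, against 6.12, 6.89, 5.01 and 3.24 in the heterozygotes. Both groups were lower at E15.5 than at E12.5, and the knockouts lay lower on each day (difference -8.21 ± 0.92, SE, adjusted p = 0.00103, limma). Dppa4 differed most, at -8.76 ± 0.96 (SE, adjusted p = 8.99e-04, limma), with a knockout signal of 1.37% of the heterozygous one at E12.5 and 0.0559% at E14.5. Lin28a, which blocks let-7 processing, and Zfp42, known as REX1, differed by -6.11 ± 0.96 and -6.07 ± 0.37 (SE, adjusted p = 0.00334 and 6.26e-05, limma). The probe used for Sall4, a zinc finger factor, was not called, at -0.13, but a second Sall4 probe, at the limit in 2 of 16 samples, read -7.23, and with the mean of all probes 15 of 15 members were lower. The mean level of the 15 genes in the knockouts went down with the days, at -0.14, -0.83, -2.06 and -2.30, against 4.15, 4.25, 2.79 and 1.92 in the heterozygotes. Without E13.5, 8 members were lower, and without E14.5, 9.

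Markers of germ cell specification behaved unequally. Of 11 tested, 5 were lower and none was higher, the targeted gene Nanos3 among the 5; it and Dnd1 are also counted in the list of germline RNA-binding proteins. Dnd1, an RNA-binding partner of the NANOS proteins, read between -0.57 and -0.36 in the knockouts, against 2.10, 3.14, 4.14 and 3.83 in the heterozygotes, and fell by 3.81 ± 0.63 (SE, adjusted p = 0.00393, limma). Tfap2c and Prdm1, which specify germ cells in the early embryo, were lower, at -3.08 ± 0.57 and -1.68 ± 0.43 (SE, adjusted p = 0.00570 and 0.0181, limma), and Ifitm1 fell by 1.30 ± 0.32 (SE, adjusted p = 0.0162, limma). Kit, the stem cell factor receptor, was lower on 4 of 4 days but not called, at -0.91 ± 0.43 (SE, adjusted p = 0.132, limma). Without E13.5 or E14.5, 3 members were lower. At the cell surface, Cdh1, E-cadherin, fell by 4.11 ± 0.53 (SE, adjusted p = 0.00179, limma) and Epcam fell by 2.63 ± 0.55 (SE, adjusted p = 0.00874, limma), while Gja1, the gap junction protein connexin 43, and Cdh2, N-cadherin, rose by 0.79 ± 0.10 and 0.60 ± 0.12 (SE, adjusted p = 0.00153 and 0.00795, limma). Of the 14 surface and adhesion genes, 4 were lower, the others being Cd9 and Gjc1 at -0.87 and -0.38, and 3 were higher, with Itga6 at 0.57 (adjusted p = 0.0274, 0.0361 and 0.00647, limma). Of all genes 12.6% were lower and 21.7% higher, so the higher count is near the background. The lower count was 2 without E12.5, 1 without E13.5 and 2 without E14.5.

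**Figure D2:**
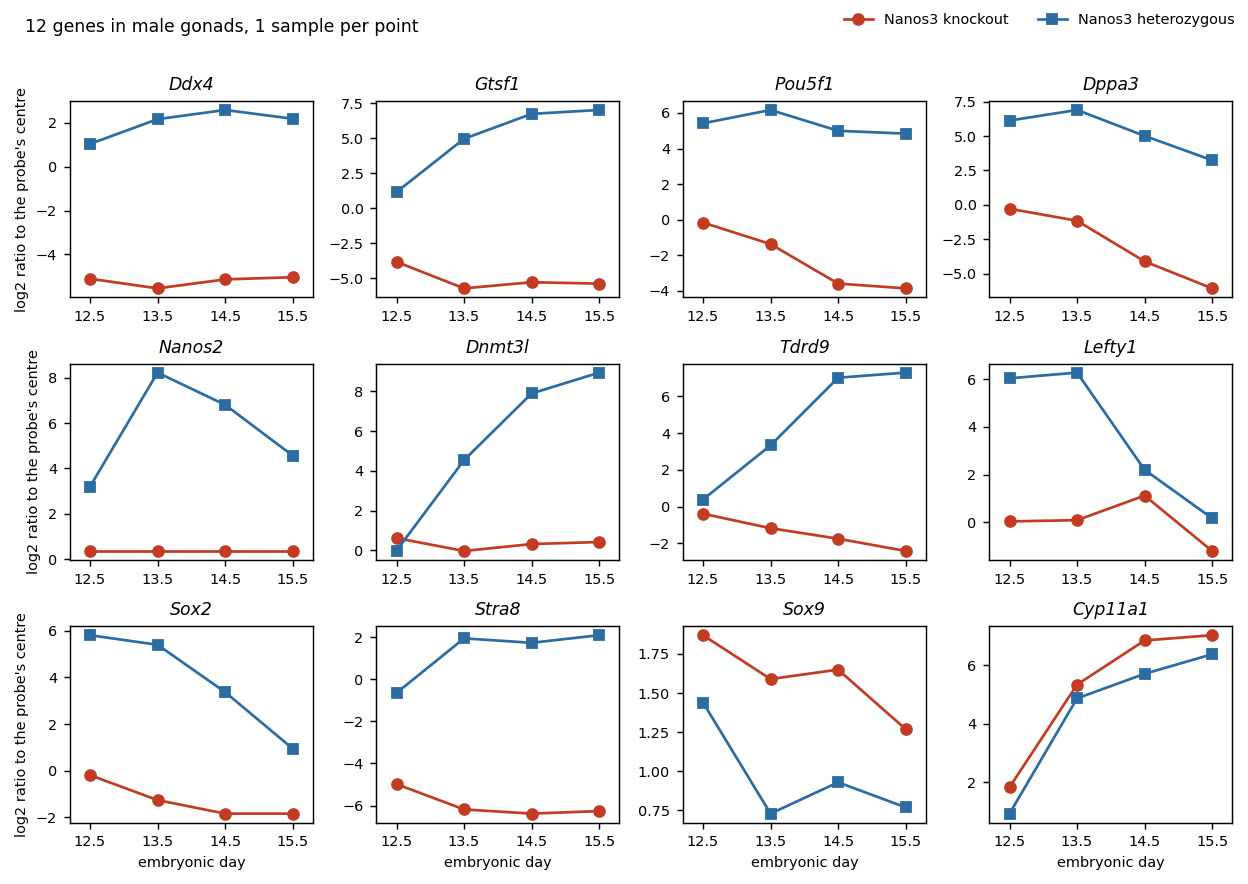
Level of 12 genes in each male sample against embryonic day, as log2 ratio to the probe's centre; red circles are Nanos3 knockout and blue squares Nanos3 heterozygous gonads, 1 sample per point, and each panel has its own scale. Dnmt3l and Tdrd9 climb in heterozygous samples, Lefty1 and Sox2 decline there, and Sox9 and Cyp11a1 are modestly higher in knockout samples.

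Genes of the male germ cell programme were far lower in the knockouts. Nanos2, which drives the male germ cell fate, was at the detection limit in 4 of 4 knockouts, and read 3.20, 8.23, 6.81 and 4.57 in the heterozygotes, with a peak at E13.5, at least 40.6-fold lower (adjusted p = 0.00452, limma). Tex101, a germ cell surface glycoprotein, read -3.18, -3.80, -3.91 and -3.71 in the knockouts, against 0.84, 3.18, 4.54 and 4.79 in the heterozygotes, a difference of -6.99 ± 0.70 (SE, adjusted p = 5.82e-04, limma). Rhox13, an X-linked homeobox gene, was at the limit in 4 of 4 knockouts and at least 109-fold lower (adjusted p = 3.54e-04, limma). Of 15 genes of this list, 12 were lower and none was higher, against 12.6% and 21.7% of all genes, with a median of -3.37. Fgfr3 and Id4, expressed in germ cells and in other cells, were among the 3 not called. The count of lower members was 6 without E13.5, 6 without E14.5 and 8 without E15.5.

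Several germ cell genes differed little at E12.5 and strongly later. Dnmt3l, the partner of the de novo DNA methyltransferases, read 0.62, -0.03, 0.32 and 0.42 in the knockouts, against -0.01, 4.54, 7.89 and 8.94 in the heterozygotes. The samples were alike at E12.5 and apart from E13.5 on, and the slope of the difference was -3.04 ± 0.49 per day (adjusted p = 0.0244, limma). Tdrd9, a piRNA pathway helicase, read -0.39, -1.18, -1.75 and -2.42 in the knockouts, against 0.38, 3.33, 7.01 and 7.29 in the heterozygotes, with a slope of -3.11 ± 0.36 (adjusted p = 0.0102, limma). Sly, a multicopy Y-linked gene, changed most, at -3.14 ± 0.47 per day (SE, adjusted p = 0.0206, limma): it was at the limit in 3 of the 4 knockouts and reached 9.39 in the E15.5 heterozygote. Tdrd1, Henmt1 and Piwil1, all of the piRNA pathway, had slopes of -1.69, -2.24 and -1.64 (adjusted p = 0.0294, 0.0486 and 0.0434, limma). Rrad, a small GTPase, and Hsd17b2, a steroid dehydrogenase, also had strongly negative slopes, -2.80 ± 0.52 and -2.75 ± 0.19 (SE, adjusted p = 0.0374 and 0.00347, limma). Both were higher in the knockout at E12.5, where Rrad read -1.10 against -3.75 and Hsd17b2 -1.63 against -3.97 in the heterozygote, and neither had a called mean difference.

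Other differences shrank with age. Lhx1, a LIM homeobox gene of germ cells and of the mesonephros, read 0.03, -0.19, -0.47 and -0.49 in the knockouts, against 5.23, 4.23, 0.36 and -0.31 in the heterozygotes, with a slope of 1.86 ± 0.26 (adjusted p = 0.0172, limma). The samples were far apart on the first days and close at E15.5. In Epcam the knockout level was also higher on the later days, at -2.35, -2.50, -0.61 and -0.34, against 1.73, 1.47, 1.0 and 0.49 in the heterozygotes. In Plac9a the order turned, with -2.22 in the knockout and 1.42 in the heterozygote at E12.5, and 1.09 in the knockout and 0.37 in the heterozygote at E15.5. Epcam, Tor3a, Plac9a and the microRNA host gene Mir9-3hg had slopes of 1.21, 1.30, 1.53 and 1.15 (adjusted p = 0.0206, 0.0346, 0.0239 and 0.0486, limma). In all, 607 genes, or 3.66%, had a more negative difference with each day and 74, or 0.446%, a more positive one. This count rests on few degrees of freedom. It was 68, 154, 16 and 2 genes in all when E12.5, E13.5, E14.5 or E15.5, in that order, was left out, and 0 in the 8 male samples alone, where 3824 genes had an unadjusted p below 0.05.

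NODAL signalling acts in male germ cells before their commitment. Of 15 genes of the pathway 4 were lower and 2 higher, against 12.6% and 21.7% of all genes. The lower ones were Nodal, Lefty1, Gdf3 and Tdgf1, of which Gdf3 and Tdgf1 are also counted in the pluripotency list. Nodal, the ligand, read 0.34, -0.08, -0.06 and -0.34 in the knockouts, against 3.27, 3.90, 2.21 and 1.59 in the heterozygotes, a difference of -2.78 ± 0.41 without overlap (SE, adjusted p = 0.00265, limma). Lefty1, its inhibitor and target, read 0.04, 0.09, 1.12 and -1.20 in the knockouts, against 6.03, 6.27, 2.20 and 0.17 in the heterozygotes, and fell by 3.65 ± 1.10 (SE, adjusted p = 0.0326, limma). Gdf3, a related ligand, and Tdgf1, the co-receptor CRIPTO, were lower, at -4.08 ± 1.10 and -0.79 ± 0.24 (SE, adjusted p = 0.0220 and 0.0361, limma). Gdf3 was at the limit in 2 of the knockouts. Lefty2 was not called and went another way: 0.40, 3.57, 4.31 and 4.64 in the knockouts, against 5.55, 5.10, 3.90 and 4.23 in the heterozygotes, so that both groups were high from E14.5. Apart from the co-receptor Tdgf1, no receptor or SMAD was lower. The 2 higher members were the ligand Gdf1 at 0.50 ± 0.10 and the signal transducer Smad3 at 0.48 ± 0.10 (SE, adjusted p = 0.00710 and 0.00839, limma). Without E13.5 or E14.5, 1 member was lower.

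Meiosis genes, which fetal male germ cells express at a modest level without entering meiosis, were lower in 21 of 30 members, with none higher and a median of -2.58. Stra8, the retinoic acid target that starts meiosis in the ovary, read -4.98, -6.18, -6.38 and -6.26 in the knockouts, against -0.65, 1.94, 1.73 and 2.09 in the heterozygotes. It fell by 7.23 ± 1.13 (SE, adjusted p = 0.00332, limma). Smc1b, a meiotic cohesin subunit, read between -6.31 and -5.23 in the knockouts, against 0.97 to 1.36 in the heterozygotes, and fell by 7.07 ± 0.47 (SE, adjusted p = 6.98e-05, limma). Tex12, of the synaptonemal complex, was at the limit in 4 of 4 knockouts and at least 114-fold lower (adjusted p = 4.77e-04, limma). Hormad1 and Sycp3, both of the chromosome axis, were lower, at -5.86 ± 0.41 and -5.79 ± 0.43 (SE, adjusted p = 8.64e-05 and 1.14e-04, limma). All 7 members at the limit in every knockout give bounds only. Of 9 oocyte genes tested, 5 were lower: Nobox, an oocyte transcription factor, at -3.53 ± 0.53, Ooep at -2.89 ± 0.59, Sohlh2 at -2.49 ± 0.47, Zp1 at -1.67 ± 0.19 and Zp3 at -1.67 ± 0.53 (SE, adjusted p = 0.00295, 0.00784, 0.00631, 0.00104 and 0.0395, limma). Both lists compare with 12.6% lower and 21.7% higher of all genes. The count of lower meiosis genes was 15 without E13.5, 17 without E14.5 and 15 without E15.5. Without E13.5, 2 of the oocyte genes were lower.

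Outside the lists, the 10 lowest genes were Mageb4, Rpl39l, Tex19.1, Stk31, Xlr5a, Xlr5c, Trap1a, Mbl2, Ldhc and Rbmxl2. Mageb4, an X-linked melanoma antigen family gene, was at the limit in 3 of 4 knockouts and read 1.32, 4.34, 6.41 and 6.37 in the heterozygotes, a difference of -9.10 ± 0.84 (SE, adjusted p = 3.91e-04, limma). Rpl39l, a ribosomal protein paralogue of germ cells, and Tex19.1, a germ cell gene that limits transposons, were lower, at -8.66 ± 0.64 and -8.58 ± 0.55 (SE, adjusted p = 1.18e-04 and 6.98e-05, limma). Rpl39l, Tex19.1 and Rbmxl2 stood at the table's lowest ratio in 2 knockouts each. Ldhc, the lactate dehydrogenase of sperm, was at the limit in 3 of 4 knockouts, and read 1.37 in the E12.5 heterozygote and 5.05 in that of E15.5. Mbl2, a serum lectin, was at the limit in 4 of 4 knockouts and at least 142-fold lower (adjusted p = 8.99e-05, limma). The Xlr5 and Mage genes belong to families of near-identical copies, so their probes may read several members.

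Genes of the X chromosome made up 39 of the 273 genes that were at least 8-fold lower, or 14.3%, against 5.61% of those at least 2-fold lower and 3.58% of all genes tested that have a chromosome. Among the 39 were Fmr1nb, Ott, Tex13b and Magea3 with differences of -6.59, -6.76, -6.47 and -5.72. On the Y chromosome, Uba1y, a ubiquitin-activating enzyme gene of germ cells, read 0.97, 1.5, 1.86 and 2.48 in the knockouts, against 6.03, 6.6, 6.41 and 5.91 in the heterozygotes, and fell by 4.54 ± 0.25 (SE, adjusted p = 5.07e-05, limma). Usp9y was at the limit in 4 of 4 knockouts and between 2.64 and 4.74 in the heterozygotes, at least 10.7-fold lower (adjusted p = 0.00169, limma). The Y-linked genes thus did not move as one, since Kdm5d and Uty were not called. These genes of the X and Y chromosomes were picked for their chromosome after the values were seen, and the shares have no test.

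Among enzymes of DNA methylation, Dnmt3l fell by 5.01 ± 1.28 (SE, adjusted p = 0.0178, limma) and Dnmt3a, a de novo methyltransferase, fell by 1.25 ± 0.36 (SE, adjusted p = 0.0273, limma). Dnmt3a read -0.01, -0.15, -0.54 and -0.56 in the knockouts, against -0.06, 0.47, 1.63 and 1.71 in the heterozygotes, so the groups parted after E12.5. The 3 Dnmt3a probes differed by -1.25, -1.05 and 0.35. Tet3, Uhrf1, Tdg and Tet2 rose by 0.53 ± 0.11, 0.43 ± 0.11, 0.39 ± 0.09 and 0.37 ± 0.11 (SE, adjusted p = 0.00795, 0.0161, 0.0121 and 0.0285, limma). In all, 2 of 12 were lower and 4 higher, against 12.6% and 21.7% of all genes. Both counts were 0 when E13.5 or E14.5 was left out, and 0 and 2 when E15.5 was; in the 8 male samples alone no member was lower, and with the values as deposited 1 was lower and none higher.

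Of the brakes on the cell cycle, which germ cells use when they enter mitotic arrest, 2 loci stood out. Cdkn2a read -0.64, -1.24, -1.24 and -0.55 in the knockouts, against 2.93, 4.16, 2.19 and 2.92 in the heterozygotes, and fell by 3.97 ± 0.80 (SE, adjusted p = 0.00775, limma). Its neighbour Cdkn2b read -1.32, -1.66, -1.0 and -0.89 in the knockouts, against 0.66, 2.38, 2.84 and 2.46 in the heterozygotes, and fell by 3.30 ± 0.30 (SE, adjusted p = 3.44e-04, limma). Neither pair of groups overlapped. Cdkn1c, Cdkn2c and Rbl2, of the same families, rose by 0.68 ± 0.13, 0.51 ± 0.16 and 0.47 ± 0.14 (SE, adjusted p = 0.00719, 0.0414 and 0.0339, limma), and 6 of 15 members were higher in all, against 21.7% of all genes. That higher count was 3 with median centring and 0 with the values as deposited, and 3 without E12.5, 2 without E13.5 and 0 without E14.5. Proliferation genes did not pass the test in either direction: 0 of 15 were called by limma, of which 0 had an unadjusted p below 0.05, and their median was 0.09. With the mean of all probes 1 member was lower, and without E12.5 1 was higher.

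Among p53 targets and apoptosis genes, Pmaip1, the pro-apoptotic NOXA, stood out. It read -0.57, -0.79, 0.03 and -0.10 in the knockouts, against 3.95, 4.57, 4.63 and 3.09 in the heterozygotes, and fell by 4.42 ± 0.57 (SE, adjusted p = 0.00176, limma). Mdm2, the p53 ubiquitin ligase, fell by 1.03 ± 0.17 (SE, adjusted p = 0.00358, limma), Ccng1 fell by 0.75 ± 0.17 (SE, adjusted p = 0.0113, limma) and Sesn2 fell by 0.71 ± 0.18 (SE, adjusted p = 0.0183, limma). For Ccng1 and Sesn2 a second probe read 0.43 and 0.31, opposite in sign. Phlda3 and Bcl2 rose by 0.55 ± 0.09 and 0.44 ± 0.10 (SE, adjusted p = 0.00441 and 0.0136, limma). In all, 4 of 17 genes were lower and 2 higher, against 12.6% and 21.7% of all genes, and the lower count was 2 without E14.5 and with the mean of all probes.

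Egr4, a transcription factor of the immediate early family, was the clearest gene of its list. It read -2.45, -2.41, -2.28 and -1.87 in the knockouts, against 3.42, 7.93, 8.57 and 8.56 in the heterozygotes, and fell by 9.37 ± 0.73 (SE, adjusted p = 1.54e-04, limma). Egr1, Fosl2, Jun and Junb went the other way by small amounts, 0.64 ± 0.16, 0.56 ± 0.16, 0.53 ± 0.10 and 0.51 ± 0.13 (SE, adjusted p = 0.0175, 0.0271, 0.00636 and 0.0154, limma). Of 15 members 1 was lower and 6 were higher, against 12.6% and 21.7% of all genes. The higher count was 4 without E12.5, 1 without E13.5, 0 without E14.5 and 2 without E15.5, and 0 with the values as deposited.

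**Figure D3:**
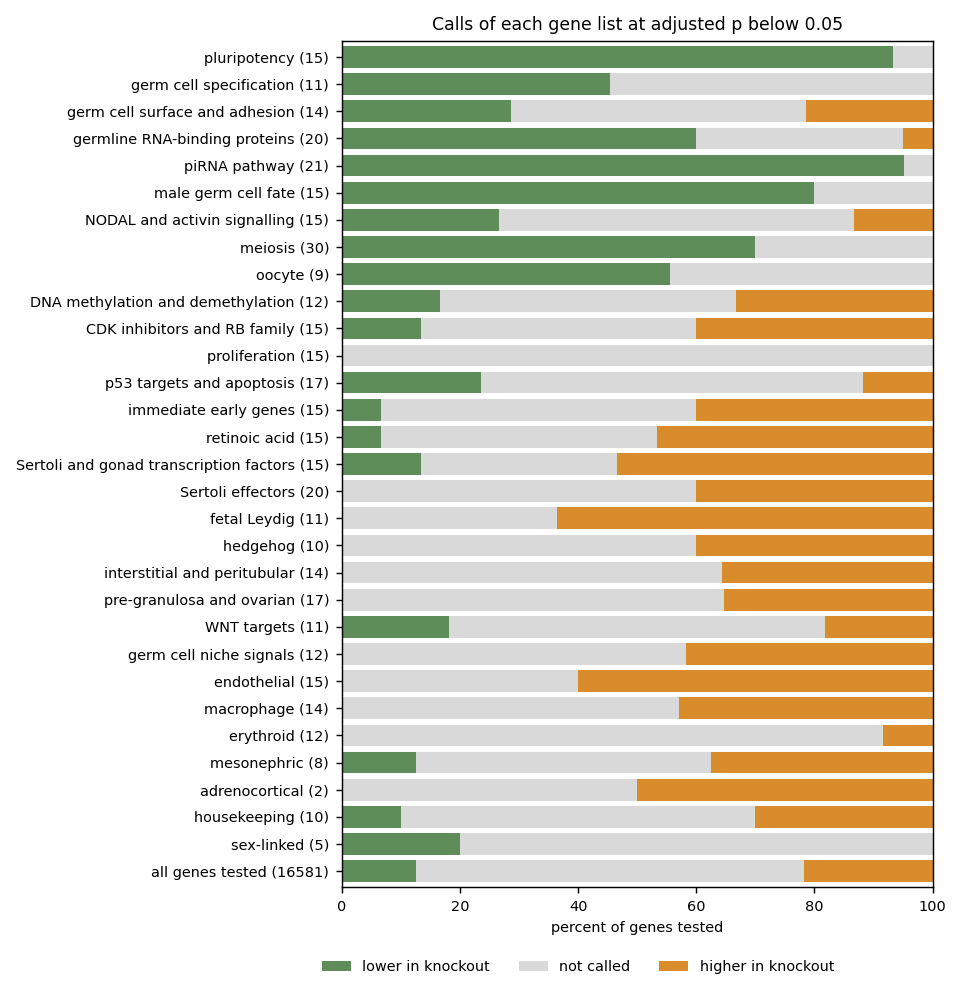
Share of the tested genes of each list, in percent, called lower (green), not called (grey) or called higher (orange) in Nanos3 knockout against Nanos3 heterozygous male gonads at an adjusted p below 0.05, with the number of genes tested in brackets. The lower share is 20 of 21 in the piRNA pathway and 14 of 15 in pluripotency, and the bottom bar gives all 16581 genes.

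Genes of the somatic cells of the testis were detected in the knockouts, and many were modestly higher. Sox9, which makes the Sertoli cell fate, read 1.87, 1.59, 1.65 and 1.27 in the knockouts, against 1.44, 0.73, 0.93 and 0.77 in the heterozygotes, and rose by 0.63 ± 0.10 (SE, adjusted p = 0.00315, limma). Nr5a1, the steroidogenic factor SF1, and Nr0b1, known as DAX1, rose by 0.89 ± 0.14 and 0.82 ± 0.10 (SE, adjusted p = 0.00333 and 0.00134, limma), as did Emx2, a gonad transcription factor, by 0.73 ± 0.14 (SE, adjusted p = 0.00735, limma). Of 15 Sertoli and gonad transcription factors, 8 were higher and 2 lower, against 21.7% and 12.6% of all genes. The 2 lower were Six4, a homeobox gene that acts upstream of Sry, and Lhx2, a LIM homeobox gene, at -1.87 ± 0.44 and -1.52 ± 0.23 (SE, adjusted p = 0.0133 and 0.00287, limma). Six4 read 0.94 in the E14.5 knockout and -0.20 to -0.08 in the other knockouts, against 1.25 to 2.30 in the heterozygotes. Sox8 was not called (0.34 ± 0.20, SE, adjusted p = 0.212, limma). The count of higher members was 4 without E14.5 and 2 with the values as deposited.

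Effector genes of Sertoli cells, which include hormones and enzymes, had 8 of 20 members higher and none lower, against 21.7% and 12.6% of all genes, with a median of 0.55. Nepn, Fabp1 and Serpind1 had been taken out of this list after values were seen. Inha, inhibin alpha, read 1.39, 2.52, 3.13 and 3.55 in the knockouts, against 0.41, 1.45, 2.08 and 2.58 in the heterozygotes. It was higher by a near constant amount on each day, 1.02 ± 0.20 (SE, adjusted p = 0.00736, limma). Clu, clusterin, and Cyp26b1, which degrades retinoic acid, rose by 0.91 ± 0.11 and 0.65 ± 0.13 (SE, adjusted p = 0.00156 and 0.00718, limma). Gdnf, a growth factor for germ cells, and Mro rose by 0.60 ± 0.12 and 0.56 ± 0.11 (SE, adjusted p = 0.00760 and 0.00629, limma). The classical markers were higher without being called. Amh read 1.64, 2.13, 2.23 and 2.29 in the knockouts, against 1.12, 1.21, 1.21 and 1.44 in the heterozygotes, a difference of 0.83 ± 0.34 (SE, adjusted p = 0.0880, limma). Dhh and Cst9 also had groups that did not overlap, with differences of 0.55 ± 0.65 and 0.63 ± 0.63 (SE, adjusted p = 0.544 and 0.460, limma). The spread in the shared fit includes the female samples, and in the 8 male samples alone these 3 genes were called, at adjusted p = 0.0259, 0.0479 and 0.0318 (limma). The higher count was 3 without E13.5, 5 without E14.5, 1 with the values as deposited and 13 with a variance fitted without trend.

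Fetal Leydig cell genes were higher in 7 of 11 members, against 21.7% of all genes, with a median of 0.64. Cyp11a1, the enzyme of the first step of steroid synthesis, read 1.82, 5.33, 6.84 and 7.02 in the knockouts, against 0.92, 4.86, 5.70 and 6.37 in the heterozygotes. Both groups climbed steeply after E12.5, and Cyp11a1 was higher in the knockout on 4 of 4 days, by 0.79 ± 0.21 (SE, adjusted p = 0.0205, limma). Hsd3b1, Scarb1, a lipoprotein receptor, Fdx1 and Pcsk6 rose by 0.74 ± 0.14, 0.72 ± 0.15, 0.64 ± 0.18 and 0.57 ± 0.09 (SE, adjusted p = 0.00594, 0.00906, 0.0263 and 0.00383, limma). Star, which carries cholesterol into mitochondria, read 1.43, 4.22, 5.58 and 5.72 in the knockouts, against 0.69, 3.35, 4.49 and 4.71 in the heterozygotes, and missed the threshold, as did Cyp17a1 (0.93 ± 0.33 and 0.70 ± 0.25, SE, adjusted p = 0.0612 and 0.0567, limma). Insl3 and Lhcgr were not analysed here. Cyp21a1, of the adrenal cortex, was not called (0.08 ± 0.10, SE, adjusted p = 0.576, limma), while Mc2r, the corticotropin receptor, rose by 0.56 ± 0.08 (SE, adjusted p = 0.00222, limma). The Leydig count was 4 without E12.5, 4 without E13.5, 2 without E14.5, 3 in the 8 male samples alone, 4 without a common limit and 0 with the values as deposited.

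Of genes of the interstitium, blood vessels and macrophages, 5 of 14, 9 of 15 and 6 of 14 were higher and none was lower, against 21.7% and 12.6% of all genes. Pdgfra, the receptor of fetal interstitial cells, rose by 0.78 ± 0.15, Maf, a factor of interstitial and immune cells, by 0.81 ± 0.12, Pdgfrb by 0.55 ± 0.09, Myh11, smooth muscle myosin, by 0.50 ± 0.15, and Tcf21 by 0.49 ± 0.10 (SE, adjusted p = 0.00608, 0.00311, 0.00369, 0.0366 and 0.00757, limma), and 5 of 14 members were higher. Acta2 and Nr2f2 were not called, at 0.37 ± 0.13 and 0.41 ± 0.18 (SE, the second with adjusted p = 0.118, limma). Of 15 endothelial genes, 9 were higher. Eng, endoglin, rose by 0.56 ± 0.08, Robo4 by 0.54 ± 0.09, Emcn by 0.53 ± 0.08, Cdh5, VE-cadherin, by 0.50 ± 0.08, Kdr by 0.47 ± 0.10 and Tek by 0.33 ± 0.11 (SE, adjusted p = 0.00265, 0.00351, 0.00334, 0.00422, 0.0101 and 0.0449, limma). Pecam1, which germ cells also express, was among the 6 not called, at -0.22 ± 0.24 (SE, adjusted p = 0.490, limma). Vwf, the von Willebrand factor, read 0.90, 1.43, 1.54 and 1.13 in the knockouts, against 0.11, 1.39, 3.32 and 4.04 in the heterozygotes, and was not called in the mean (-0.96 ± 0.52, SE, adjusted p = 0.179, limma). Its slope was -1.29 ± 0.14 per day (SE, adjusted p = 0.00909, limma).

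Among macrophage genes the 6 higher members compare with the background of 21.7%. Fcgr1, the receptor gene Csf1r, Aif1, C1qa and C1qb rose by 0.55 ± 0.16, 0.54 ± 0.15, 0.52 ± 0.12, 0.48 ± 0.14 and 0.39 ± 0.13 (SE, adjusted p = 0.0310, 0.0235, 0.0136, 0.0255 and 0.0471, limma), and Adgre1 and Cx3cr1 were not called (0.27 ± 0.12 and 0.16 ± 0.17, SE, adjusted p = 0.117 and 0.498, limma). Erythroid genes had 1 of 12 higher, Alas2, the first enzyme of heme synthesis, at 0.69 ± 0.17 (SE, adjusted p = 0.0162, limma). Klf1, the erythroid regulator, read 1.05, 1.03, -0.14 and 0.06 in the knockouts, against 0.58, -1.01, -1.53 and -1.46 in the heterozygotes, and was not called (1.35 ± 0.61, SE, adjusted p = 0.119, limma). In the 8 male samples alone 8 erythroid genes were higher, Klf1 among them (adjusted p = 0.0256, limma). The embryonic globins Hbb-bh1 and Hbb-y declined with age in both groups and were not called, at 0.51 ± 0.20 and 0.29 ± 0.16 (SE, adjusted p = 0.0800 and 0.205, limma). With the values as deposited, 1 interstitial, 0 endothelial and 0 macrophage genes were higher, and with median centring 4, 6 and 1. Without E14.5 the counts were 2, 4 and 0, without E13.5 they were 4, 5 and 0, without E12.5 they were 5, 6 and 6 and without E15.5 they were 6, 7 and 0.

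Signals that Sertoli cells and their neighbours send to germ cells had no lower member. Of 12 niche genes, 5 were higher, against 21.7% of all genes: Inhba, an activin subunit, by 0.68 ± 0.21, Kitl, the ligand of KIT, by 0.66 ± 0.13, Igf1 by 0.66 ± 0.11, Gdnf, and Inhbb by 0.55 ± 0.10 (SE, adjusted p = 0.0338, 0.00770, 0.00386 and 0.00595 for the genes other than Gdnf, limma). In the hedgehog pathway 4 of 10 members were higher, with Gli2, Hhip and Smo at 0.60 ± 0.13, 0.60 ± 0.18 and 0.55 ± 0.16 (SE, adjusted p = 0.00846, 0.0345 and 0.0327, limma). The ligand gene Shh rose by 0.93 ± 0.18 (SE, adjusted p = 0.00619, limma), reading 0.40, 1.87, 2.95 and 2.62 in the knockouts, against -0.46, 1.05, 2.04 and 1.49 in the heterozygotes. The niche count was 2 without E13.5 and 2 without E14.5, and the hedgehog count 2 without E12.5, 1 without E13.5 and 1 without E14.5, and both were 0 with the values as deposited.

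In the retinoic acid pathway, the receptor Rarg was the 1 lower member of 15. It read -0.73, -1.29, 0.03 and -0.12 in the knockouts, against 0.54, 0.99, 1.10 and 0.87 in the heterozygotes, and fell by 1.40 ± 0.22 (SE, adjusted p = 0.00333, limma). The other 3 Rarg probes read -0.67, -0.42 and -0.35. The 7 higher members, against 21.7% of all genes, included Aldh1a3, which makes retinoic acid, at 0.85 ± 0.20, Dhrs3, which turns retinal back to retinol, at 0.64 ± 0.11, and the receptor Rarb at 0.54 ± 0.14 (SE, adjusted p = 0.0126, 0.00512 and 0.0191, limma). The count of 7 was 0 with the values as deposited, 2 without E13.5 and 1 without E14.5. The WNT targets had shares near those of all genes, 12.6% lower and 21.7% higher. Of 11 tested, 2 were lower, Sp5 at -1.13 ± 0.21 and Wif1 at -0.89 ± 0.25 (SE, adjusted p = 0.00540 and 0.0265, limma), and 2 were higher, Rnf43 at 0.78 ± 0.14 and Nkd1 at 0.45 ± 0.09 (SE, adjusted p = 0.00496 and 0.00866, limma). The lower count was 1 without E13.5, 0 without E14.5, 1 without E15.5 and 1 with the values as deposited.

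Of 17 markers of the ovarian somatic fate, 6 were higher and none was called lower, against 21.7% and 12.6% of all genes. Foxl2, the granulosa cell factor, read -0.35, -0.43, -0.73 and -0.94 in the knockouts, against -0.25, -0.38, -1.15 and -1.56 in the heterozygotes (0.22 ± 0.15, SE, adjusted p = 0.288, limma). Fst, follistatin, and Irx3 were not called either (0.33 ± 0.35 and 0.04 ± 0.27, SE, adjusted p = 0.483 and 0.919, limma), and both were highest in the E12.5 knockout, at -3.29 and -2.91. Wnt4 and Rspo1, of the ovarian WNT pathway, rose by 0.62 ± 0.13 and 0.29 ± 0.08 (SE, adjusted p = 0.00977 and 0.0230, limma), as did Lgals7 and Zfp277 by 0.63 ± 0.11 and 0.38 ± 0.11 (SE, adjusted p = 0.00434 and 0.0278, limma). The list's median was 0.36, and its lowest member was Msx2, a homeobox gene, at -1.10 ± 0.43 (SE, adjusted p = 0.0765, limma). In the 8 male samples alone 1 member was lower, as was 1 without E13.5. With the values as deposited 1 was higher, with quantile normalization 11, with median centring 4, without E12.5 4 and without E14.5 1.

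Genes of the neighbouring mesonephros had 3 of 8 members higher and 1, Lhx1, lower, against 21.7% and 12.6% of all genes. Emx2, Upk3b, a surface marker of the coelomic epithelium, and Gata3 were these, with Upk3b at 0.71 ± 0.13 and Gata3 at 0.46 ± 0.16 (SE, adjusted p = 0.00552 and 0.0497, limma). Cdh16, the kidney cadherin, was not called (1.42 ± 0.59, SE, adjusted p = 0.0915, limma), and its signal in the E12.5 knockout was 1120% of the heterozygous one. Pax2 was not called (0.34 ± 0.16, SE, adjusted p = 0.130, limma). Pax8 read -0.35, -1.01, -1.12 and -1.15 in the knockouts, against -1.43, -1.87, -0.55 and 0.13 in the heterozygotes, with a slope of -0.85 ± 0.11 (SE, adjusted p = 0.0138, limma). Among 10 housekeeping genes, 3 were higher and 1 lower: Gapdh, B2m and Gusb at 0.71 ± 0.11, 0.52 ± 0.16 and 0.49 ± 0.09, and Tbp, a general transcription factor, at -0.64 ± 0.10 (SE, adjusted p = 0.00320, 0.0342, 0.00615 and 0.00370, limma). Their median was -0.02, and the counts are near the 21.7% higher and 12.6% lower of all genes. The other Gapdh probes read 0.26 and 0.32. The mesonephric count was 0 with the values as deposited, 2 without E13.5 and 1 without E14.5, and the housekeeping count of higher genes 1 without E14.5 and 0 as deposited.

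**Figure D4:**
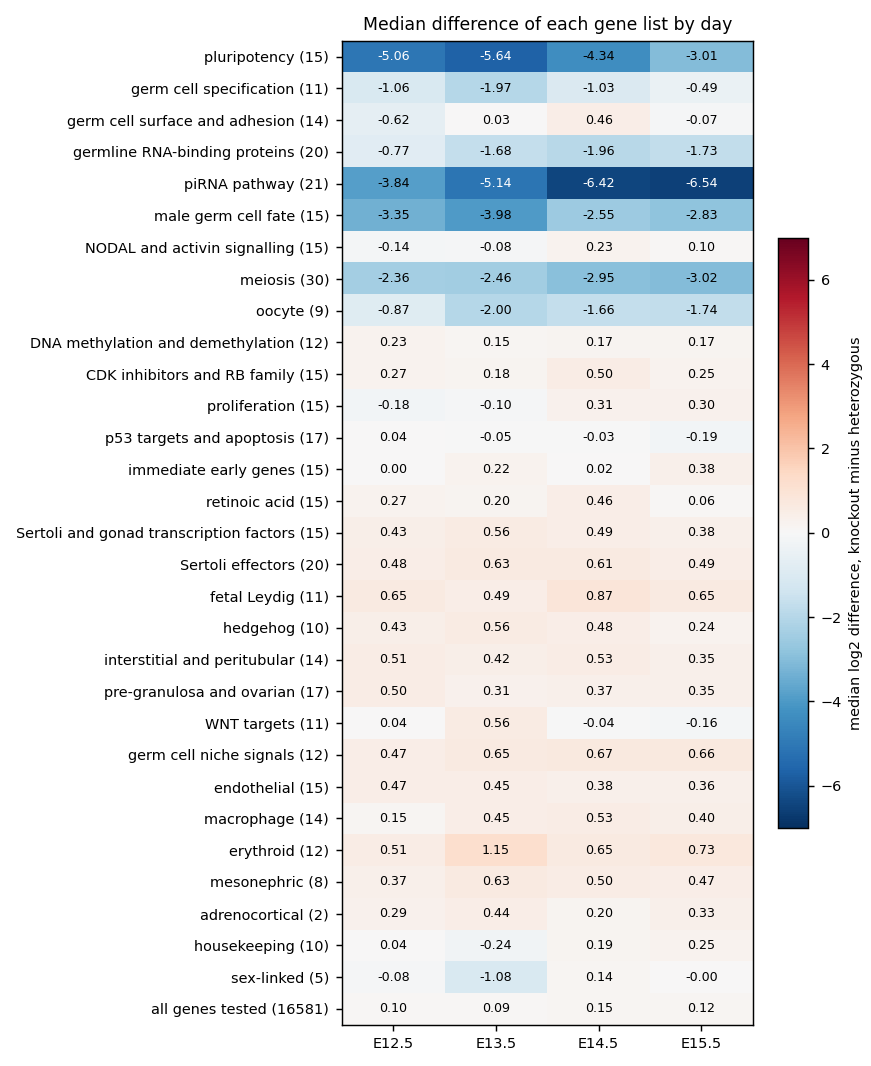
Median log2 difference of each gene list, knockout minus heterozygous male gonad, on each embryonic day (colour and number), with the number of genes tested in brackets. The piRNA pathway deepens from -3.84 at E12.5 to -6.54 at E15.5, pluripotency is lowest at E13.5 with -5.64, and the fetal Leydig list stays between 0.49 and 0.87.

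The highest genes outside the lists were a mixed group. Nepn, nephrocan, a secreted leucine-rich protein, read 1.49, 3.67, 3.41 and 2.57 in the knockouts, against 0.20, 1.63, 0.92 and 0.38 in the heterozygotes. It was higher on 4 of 4 days and rose most of all genes, by 2.0 ± 0.23 (SE, adjusted p = 0.00123, limma). Fabp1, Serpind1, Serpina6, Fgb and Aadac, genes of liver cells, rose by 1.78 ± 0.34, 1.72 ± 0.31, 1.45 ± 0.36, 1.43 ± 0.35 and 1.51 ± 0.45 (SE, adjusted p = 0.00632, 0.00526, 0.0169, 0.0154 and 0.0306, limma). For Fabp1 the heterozygote of E14.5 was the low sample, at -3.50 against -1.83 to -0.83 in the other heterozygotes. Alb, albumin, behaved likewise, at -0.02, 1.43, -0.32 and -0.06 in the knockouts, against -1.5, -0.49, -3.54 and -0.01 in the heterozygotes. Cox8b and Tnnt2, of muscle, rose by 1.56 ± 0.26 and 1.56 ± 0.49 (SE, adjusted p = 0.00421 and 0.0377, limma) and were highest in the E12.5 knockout. Asic4, an ion channel subunit, read 0.82, 0.86, 1.27 and 1.77 in the knockouts, against -0.34, -0.07, -0.55 and -0.15 in the heterozygotes, without overlap, and rose by 1.45 ± 0.18 (SE, adjusted p = 0.00148, limma). The tenth was 9430097D07Rik at 1.41 ± 0.30 (SE, adjusted p = 0.00935, limma). Of the 69 genes at least 2-fold higher, 67 were higher on 4 of 4 days, 20 had groups that did not overlap, and 34 were also called higher in the female samples. Over all 16581 genes, the knockouts lay above every heterozygote in 7.94%, and 3465 genes were called higher in the female samples. The 69 were chosen by their mean over the same days, so the counts by day and by overlap are no separate support.

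Of the 17 heart and muscle type genes, 4 were called higher and 2, both of skeletal muscle, lower, with a median of 0.90. Of all genes 21.7% were higher and 12.6% lower. Myog, myogenin, differed by 0.24, -1.40, -2.79 and -4.13 from E12.5 to E15.5, and Myh3, embryonic myosin, by 0.09, -1.26, -3.43 and -5.67. Their mean differences were -2.02 in Myog and -2.57 in Myh3 (adjusted p = 0.0351 and 0.0301, limma), while the heart genes Nppa and Myl4 differed by 0.27 or less from E13.5 on. Myh6, Myl1 and Ryr2, not called in the mean, also turned lower, at -1.18, -1.52 and -0.76 at E15.5. Their slopes were -1.57, -1.53 and -0.80 per day (adjusted p = 0.00966, 0.035 and 0.0366, limma). These slopes start from differences of 3.75, 3.65 and 1.80 at E12.5, the day whose knockout library stood apart. The median of the 17 genes at E15.5 was 0.05. These genes were chosen after their values were seen.

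The male effect was set against the female one to see which differences depend on the sex of the gonad. The contrast of the knockout effects, male minus female, was called for 145 genes, or 0.874%. Egr4 was the most negative, at -5.82 ± 1.03 (adjusted p = 0.0441, limma): its effects were -9.37 in male and -3.55 in female gonads. Of its 8 female samples, 4 were at the detection limit, so the female effect may be a bound and the difference smaller. Ucma, a cartilage matrix protein, read -1.82, -1.32, -0.51 and 0.23 in the male knockouts, against 4.26, 5.72, 4.04 and 5.30 in the male heterozygotes, and its effects were -5.68 in males and -0.37 in females (difference -5.31 ± 0.64, SE, adjusted p = 0.0164, limma). Padi3, a protein-arginine deiminase, and Creg2 had male effects of -5.52 and -4.98, and differences of -4.95 ± 0.88 and -4.95 ± 0.45 (SE, adjusted p = 0.0445 and 0.00508, limma). Tdrd5, of the piRNA pathway, had effects of -6.88 in males and -2.09 in females, with a difference of -4.79 ± 0.65 (SE, adjusted p = 0.0250, limma). On the other side were 3 meiotic genes, Majin, M1ap and Meioc, with male effects of -2.05, -1.41 and -4.15 and female ones of -6.84, -5.86 and -8.37. Their differences were 4.78 ± 0.73, 4.46 ± 0.78 and 4.22 ± 0.56 (SE, adjusted p = 0.0299, 0.0436 and 0.0217, limma). 4930550L24Rik and Cited1, a transcriptional coregulator, followed at 4.58 ± 0.26 and 4.28 ± 0.54 (SE, adjusted p = 7.89e-04 and 0.0195, limma). A second probe of Creg2 and of Majin gave smaller male effects, -0.75 and -0.53. Of the 145 genes, 3 were at the detection limit in all 8 female samples, Nepn among them, so no female effect could be measured in these. Of 30 meiosis genes, 5 had a more positive male effect. The count of 145 was 1123 without E12.5 and 1, 0 and 9 without E13.5, E14.5 and E15.5, with 1374 genes at an unadjusted p below 0.05 where it was 0.

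**Figure D5:**
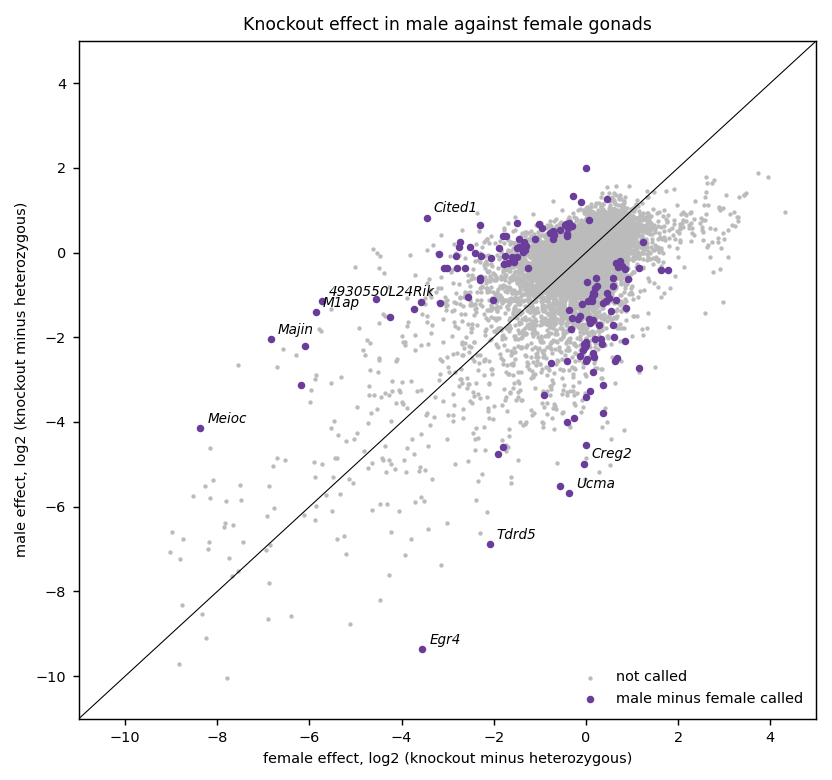
Knockout effect in male gonads (vertical axis) against that in female gonads (horizontal axis), both log2 of knockout over heterozygous, 1 point per gene; purple points are the 145 genes called in the contrast of the effects and the line marks equal effects. Egr4, Tdrd5 and Ucma lie below the line, and Majin, Meioc and Cited1 above it.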

How the data were processed

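RNA of whole gonads was measured on one-colour Agilent arrays, read with Agilent Feature Extraction 9.5 per the submitters' processing notes. The deposited values are linear ratios, which the authors centred on each probe's own level, with weak signals held at a limit; this was read from the values, and the authors' normalization is not given in the sources used here. Depth has no counterpart on arrays, and the number of arrays limits the precision. Of 41267 probes, 93 controls were left out and 32664 had 1 gene symbol in the platform annotation, of which 140 had no RefSeq match. Each array was set to a shared 75th percentile of the 28373 probes that no sample had at the limit, values were raised to the highest of a probe's limits, and log2 was taken. The probe with the fewest samples at the limit, then the highest mean, stood for its gene, and a gene was kept if 4 or more of its 16 samples lay above the limit. limma 3.58.1 in R 4.3.3 (lmFit and eBayes with trend) fitted all 16 samples with a term for each sex and day, which left 6 residual degrees of freedom, and 4 for the slope. P-values are two-sided and adjusted over all 16581 genes. The code was tested on simulated data. The design expected log2 values, and the table held ratios.

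The labels pair knockout and heterozygous samples by day. Deviations from the group means correlated between samples of the same day at 0.583, 0.569, 0.713 and 0.516 from E12.5 to E15.5, each the highest for its knockout sample. The text names the genes of each list with the largest changes among those called, the 10 lowest and 10 highest genes outside the lists, and the 5 most extreme genes in each direction of the slope and of the male minus female contrast. It also names key members of the lists whatever their call, and, chosen after their values were seen, members that complete a small count, genes of the X and Y chromosomes and muscle genes. The comparison, the lists and the named genes were chosen with earlier results of these data known. Nepn, Fabp1 and Serpind1 were taken out of the Sertoli list, and the liver and muscle lists were added, after values were seen. The alternatives were no term for day, male samples alone, values as deposited, quantile normalization, median centring, no common limit, no filter, a filter on male samples, the mean of all probes, a variance without trend, and each day left out.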

Additional observations from a re-analysis of the deposited data

Results flagged for a closer look

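In several genes a single sample lay far from the other 3 of its group by Dixon's ratio, which chance alone exceeds in about 1 of 20 groups. Both groups of the 211 genes named with a male effect were screened, so many such flags would arise by chance alone. The samples of a group are different days, and the sample apart was most often that of E12.5. Stra8 read -4.98 in the E12.5 knockout, against -6.38 to -6.18 in the other knockouts, and -0.65 in the E12.5 heterozygote, against 1.73 to 2.09 in the other heterozygotes. In the knockouts of E12.5, Hormad1 read -3.79, Fdx1 0.29, Irx3 -2.91, Cited1 0.04, Tnnt2 4.71, Nppa 5.52 and Myl4 4.31. In the heterozygotes of E12.5, Egr4 read 3.42, Xlr5a 1.15, Xlr5c 1.03, Mbl2 2.60 and 4930550L24Rik 0.15, each below the later days. Six4 was apart in both groups on late days, at 0.94 in the E14.5 knockout and 1.25 in the E15.5 heterozygote. In other genes the gap was under 1 log2 unit. Among the knockouts, Lin28a read -0.45, Fgfr3 -0.30 and Ldhc -3.51 at E12.5, Cdh1 -2.14 and Henmt1 0.33 at E13.5, Dnd1 -0.36 and Sly 1.12 at E14.5, and Tet3 0.25, Mageb4 -4.32 and Stk31 -6.10 at E15.5. Among the heterozygotes, Rhox13 read 1.03 at E12.5 and C1qb 0.02 at E15.5. The knockouts of the other days were at the limit in Lin28a, Ldhc, Henmt1, Sly, Mageb4 and Stk31. Serpind1 read -2.56 in the E14.5 heterozygote, against -0.88 to -0.79 in the other heterozygotes.

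The knockout effect differed between male and female gonads by the contrast of the effects in 10 of the genes named. The male effect was the more negative in Egr4 by -5.82, in Ucma by -5.31, in Padi3 and Creg2 by -4.95 each, and in Tdrd5 by -4.79. It was the more positive in Majin by 4.78, in 4930550L24Rik by 4.58, in M1ap by 4.46, in Cited1 by 4.28 and in Meioc by 4.22. For Egr4, 4 female samples were at the detection limit, so its female effect may be a bound.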

How the results depend on the processing

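Of 211 genes named with a male effect, 171 were called, and all 171 kept their direction under each alternative that held them. This is little support, since most were named for large called effects in these same data. The fits of male samples alone, without the term for day and without a variance trend also keep the same estimate, so no direction could change there. Of the 171 genes, 61 were called under each alternative that left out no day and 57 under each alternative run. With no replicate block, that is without the term for day, 69 of the 171 were called, and the counts over all genes were 1037 called, 884 lower, 153 higher, 10 at least 2-fold higher, 41 in the male minus female contrast and 261 for the slope. In that fit 0 Sertoli, Leydig, endothelial and macrophage genes were higher. With the values as deposited, 90 of the 171 were called, and the counts were 1943 called, 328 higher, 28 at least 2-fold higher, 72 male minus female and 2050 slopes. Quantile normalization gave 298 genes at least 2-fold higher and 285 slopes, and median centring 45 genes at least 2-fold higher. Without a common limit 95 genes differed between the sexes, and without a filter 44, with 132 slopes. The male samples alone gave 0 slopes. Leaving out each day in turn gave 1568 to 5247 genes called, 799 to 2281 lower, 769 to 2966 higher, 581 to 1343 at least 2-fold lower, 41 to 97 at least 2-fold higher, 0 to 1123 male minus female and 2 to 154 slopes. The cause of these changes was not tested, beyond the fewer samples of the fits that leave out a day. Genes held at the limit in all knockouts give a bound on the fold in each setting that keeps the limit.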
